A study of Mus musculus with 12 samples.

Results

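The tricarboxylic acid cycle enzymes described here are 9 genes, which were taken by name from the deposited count table: Cs, Idh3a, Idh3b, Idh3g, Ogdh, Sucla2, Suclg1, Fh1 and Mdh2. They are 9 of the 25078 genes in the table. All 9 were found in it, and all 9 passed the filter on low counts in every fit, with 1239 to 11228 counts in a library. Another 8 genes of the cycle (Idh2, Dlst, Dld, Suclg2, Sdha, Sdhb, Sdhc and Sdhd) were examined beside them. Their level was compared between donor genotypes in CD4+ and CD8+ T cells, to ask whether STAT3 and PD-1 in donor T cells bear on the RNA of this pathway in a target tissue of graft-versus-host disease.

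The RNA-Seq data cover donor T cells from the liver of BALB/c recipients on day 6 after hematopoietic cell transplantation (HCT). The recipients were WT in all 12 libraries. They were irradiated and given C57BL/6 T cells with T cell-depleted bone marrow from WT C57BL/6 donors. The 3 donor genotypes were WT, STAT3ko and STAT3ko PD-1ko. In STAT3ko donors a floxed Stat3 was deleted by CD4-Cre, which acts in thymocytes before the CD4 and CD8 lineages part, so that both subsets carry the deletion. STAT3ko PD-1ko donors carried this deletion together with a germ-line loss of PD-1, and no group lacked PD-1 alone. The ages of the mice are not given in the sources used here. Cells were sorted as H-2Kb+TCRβ+CD4+ or H-2Kb+TCRβ+CD8+, with 2 libraries in each of the 6 groups, 12 in all. Each library combined the cells of 3 recipients, so that the replicates are pools of mice. The libraries held 21676125 to 24551477 counts on genes.

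The cycle runs in the mitochondrial matrix and oxidizes the acetyl group of acetyl-CoA to carbon dioxide, which yields NADH, FADH2 and GTP or ATP. Citrate synthase opens it, isocitrate dehydrogenase and the 2-oxoglutarate dehydrogenase complex release the carbon dioxide, and succinyl-CoA ligase, succinate dehydrogenase, fumarase and malate dehydrogenase return the carbon to oxaloacetate. In activated T cells glutamine also feeds the cycle through 2-oxoglutarate, and citrate and aspartate are drawn from it for the synthesis of lipids and nucleotides.

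The genotype labels were checked against the targeted genes. Levels of one gene are given as normalized CPM, in which counts are scaled to the size of the library by TMM over the 12 libraries. Stat3, the transcription factor deleted in the donor T cells, stood at 369 and 467 CPM in the 2 WT, 139.9 and 164 in the 2 STAT3ko and 157 and 219 in the 2 STAT3ko PD-1ko libraries of CD4+ T cells. The CD8+ libraries held 397 and 384 CPM in WT, 149 and 136 in STAT3ko and 154 and 235 in STAT3ko PD-1ko. Every library with the deletion was thus below every WT library of its subset, although the adjusted p of STAT3ko against WT missed the threshold of 0.05 (0.0550 in CD4+ and 0.108 in CD8+ T cells, quasi-likelihood test of edgeR, adjusted over all genes after Benjamini and Hochberg). Pdcd1, which encodes PD-1, was at 55.1 and 26.0 CPM in STAT3ko PD-1ko CD4+ T cells and at 93.6 and 65.6 CPM in their CD8+ T cells, against 235 to 454 CPM in the other 8 libraries. Both genes went with the labels in all 12 libraries.

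The sort was checked with marker genes. Cd4 had a median of 1769 CPM in CD4+ and 0.712 CPM in CD8+ libraries, and Cd8a had a median of 1104 CPM in CD8+ and 0.965 CPM in CD4+ libraries. Alb, the most abundant product of hepatocytes, was at most 0.519 CPM, and the 10 hepatocyte markers together reached 5.14 CPM at most, with Trf the most abundant and 2 to 5 of the 10 at 0. The 3 globin genes used as erythroid markers were listed at 0 in every library, although genes with near-identical copies can lose reads in the counting.

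Some markers of other cell types differed with the genotype. The 8 myeloid and Kupffer cell markers summed to 56.4 and 69.4 CPM in WT, 46.3 and 56.4 in STAT3ko and 20.8 and 18.4 in STAT3ko PD-1ko libraries of CD4+ T cells. In the CD8+ libraries these sums were 98.2 and 100.5, 81.7 and 101 and 25.3 and 25.5 CPM, in the same order. Most of this was Itgam, at 47.6 and 55.3 CPM in WT against 11.99 and 7.19 CPM in STAT3ko PD-1ko CD4+ libraries, and at 68.2 and 66.7 CPM in WT against 8.04 and 6.49 CPM in STAT3ko PD-1ko CD8+ libraries. Cd68 was not lower in CD4+ libraries, at 8.27 and 8.68 CPM in WT against 8.57 and 10.3 CPM in STAT3ko PD-1ko, and was at 29.1 and 28.9 CPM against 16.9 and 18.3 CPM in the CD8+ libraries. Of the 8 markers, 0 to 3 were at 0. Egfl7, an endothelial marker, passed in edgeR as higher in STAT3ko PD-1ko against WT and against STAT3ko in both subsets, at 4.95 and 5.51 CPM against 1.16 and 0.879 CPM in WT CD8+ libraries. In CD4+ T cells it passed the filter on low counts only through STAT3ko PD-1ko. The 5 endothelial markers together, mostly Pecam1, were at 115 to 198 CPM in the 12 libraries. In CD8+ T cells Cd79b, a B cell marker, was lower in STAT3ko PD-1ko (5.92 and 5.10 CPM) as compared with WT (14.5 and 10.6 CPM) and with STAT3ko (12.5 and 13.7 CPM). Klrb1c, an NK cell marker, was lower there as compared with WT, at 22.9 and 11.2 against 48.9 and 56.2 CPM. Of 3 hepatocyte markers tested, 1 passed, upward, between STAT3ko PD-1ko and STAT3ko CD8+ T cells. The sum of the 8 T cell markers was lower as well, at 4864 and 4703 CPM in STAT3ko PD-1ko against 5888 and 5696 CPM in WT CD4+ libraries, and at 4368 and 4461 against 6399 and 6636 CPM in CD8+ libraries. The part of these markers in the results below was not tested. In bulk samples fewer cells of a kind and less RNA per cell cannot be told apart.

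To compare genes with one another, counts were also divided by exon length (TMM-scaled RPKM). On this scale Mdh2 was the most abundant of the 9 enzymes in every library, with a mean of 196 over the 12 libraries. Cs (129.99), Idh3b (120.0) and Idh3g (103) followed, and these 4 genes took the upper 4 places in all 12 libraries. Suclg1 (63.5), Idh3a (59.6), Fh1 (51.9), Sucla2 (44.1) and Ogdh (42.3) were lower. Within the lower group the order changed from library to library: Fh1 and Ogdh both ranged from place 6 to place 9, and Sucla2 from place 7 to place 9, so that these neighbours did not differ beyond their spread. Cs and Idh3b also exchanged places.

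Among these 8 genes, the 4 subunits of succinate dehydrogenase (Sdhb 147, Sdhd 107, Sdha 91.6 and Sdhc 73.2 TMM-scaled RPKM), Dlst (65.9) and Dld (57.1) were in the range of the 9 enzymes. Suclg2 (6.30) and Idh2 (5.89) were far below it, and no library of either came near the level of any other cycle gene examined. These values use 1 exon length for each gene, so that a shorter or longer transcript in T cells would shift them.

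**Figure D1:**
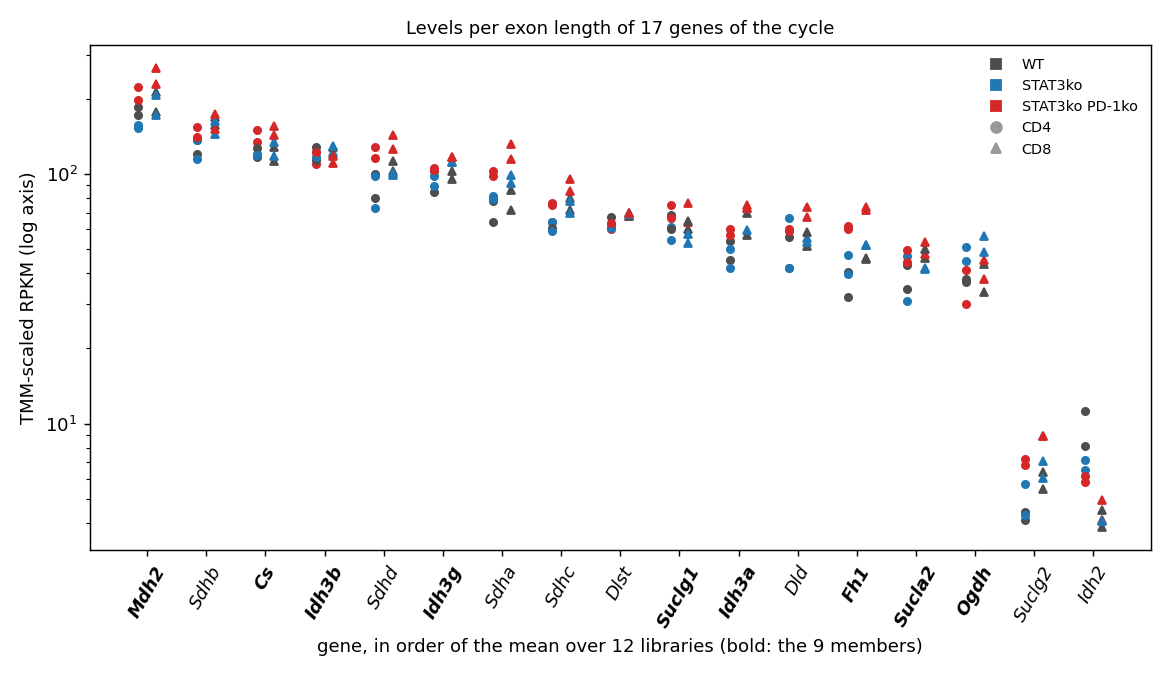
Levels per exon length of 17 genes of the cycle, in TMM-scaled RPKM on a log axis, with 1 point for each of the 12 libraries (circles CD4+, triangles CD8+, colors for the donor genotype) and genes in the order of their mean. Mdh2 was the highest, at 196 on average, and Suclg2 and Idh2 lay apart from the rest, at 6.30 and 5.89.

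Taking the 9 enzymes in each comparison, Fh1 was the only gene whose RNA passed the edgeR test without a block for the replicate number. It rose in STAT3ko PD-1ko T cells. As compared with WT, Fh1 was 1.71 times as high in STAT3ko PD-1ko CD4+ T cells and 1.60 times as high in STAT3ko PD-1ko CD8+ T cells. As compared with STAT3ko, it was 1.41 times as high in STAT3ko PD-1ko CD8+ T cells. No enzyme of the 9 passed the test between STAT3ko and WT T cells in either subset. These counts stand against the share of all genes that passed. Between STAT3ko PD-1ko and WT, 1 of 9 enzymes passed in each subset, where 12.9% of 11959 genes in CD4+ and 17.2% of 12002 genes in CD8+ T cells passed. Between STAT3ko PD-1ko and STAT3ko, 0 of 9 passed in CD4+ T cells (11.1% of all genes) and 1 of 9 in CD8+ T cells (16.8%). Between STAT3ko and WT, 0 of 9 passed in both subsets, where 0.334% (CD4+) and 0.0583% (CD8+) of all genes passed. The share of the 9 enzymes that passed is thus near or below that of all genes in each comparison. With a block for the replicate number, 2 of 9 passed between STAT3ko PD-1ko and STAT3ko in each subset. These were Fh1 and Mdh2 in CD4+ and Fh1 and Ogdh in CD8+ T cells, where 26% and 24.4% of all genes passed.

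Most of the enzymes leaned upward in STAT3ko PD-1ko T cells without passing. As compared with WT, 7 of the 9 had a positive log2 fold change in CD4+ T cells, with a median of 0.25, and 8 of the 9 in CD8+ T cells, with a median of 0.24. As compared with STAT3ko, 7 of the 9 were positive in each subset, with medians of 0.29 (CD4+) and 0.26 (CD8+). The SD of these medians from the spread between replicates was 0.12, 0.05, 0.10 and 0.06, in this order. With 1 library left out the median of STAT3ko PD-1ko against WT went down to 0.134 in CD4+ T cells (without WT replicate 2), and that against STAT3ko to 0.193 in CD4+ (without STAT3ko PD-1ko replicate 2) and 0.169 in CD8+ T cells (without STAT3ko replicate 2). Over all genes tested the median was between -0.01 and 0.01 in every one of the 6 comparisons. Of STAT3ko against WT the medians were -0.01 and 0.07, within the SD of 0.10 and 0.11. Comparisons with the same WT or STAT3ko libraries share them, so the values are not independent of each other.

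Put together, the 9 enzymes took 0.1498 and 0.145% of all counts in the WT, 0.1495 and 0.1496% in the STAT3ko and 0.171 and 0.180% in the STAT3ko PD-1ko libraries of CD4+ T cells. The CD8+ T cells gave 0.163 and 0.156%, 0.174 and 0.166% and 0.193 and 0.201%, in the same order. Both STAT3ko PD-1ko libraries lay above the other 4 libraries in each subset. As sums of normalized CPM they were again above the other 4, with a smaller gap, while the order among the other 4 changed. The STAT3ko PD-1ko libraries were at 1672 and 1719 against 1456 to 1569 CPM in CD4+ T cells. In CD8+ T cells they were at 1846 and 1917 against 1527 to 1815 CPM. An exact permutation test (2-sided) could not reach a p below 0.333 with so few libraries, so none is given for the sum.

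**Figure D2:**
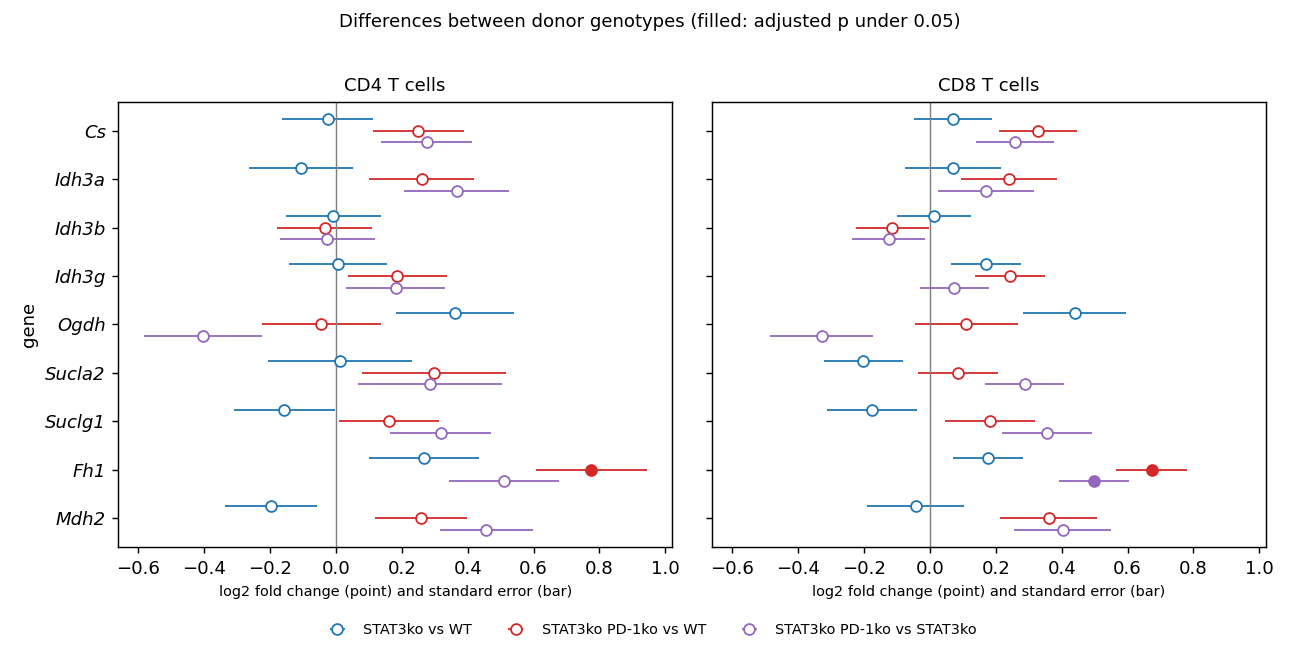
Log2 fold change (points) and standard error (bars) of the 9 enzymes between donor genotypes in CD4+ (left) and CD8+ (right) T cells, from edgeR with 2 libraries in each group. Filled points, with an adjusted p under 0.05, are Fh1 in STAT3ko PD-1ko against WT in both subsets and against STAT3ko in CD8+ T cells; all other points are open.

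Fh1 (chr1:175601378-175625635, minus strand of mm10) encodes fumarase, which hydrates fumarate to malate. In CD4+ T cells it was at 65.8 and 52.5 CPM in the 2 WT libraries, 77.2 and 64.6 in STAT3ko and 101 and 98.4 in STAT3ko PD-1ko. The CD8+ libraries were at 75.4 and 74.5, 84.9 and 84.7 and 117 and 121 CPM, in the same order. Both STAT3ko PD-1ko libraries lay above all 4 others in each subset, and in CD8+ T cells the 3 genotypes did not overlap. Such orders of libraries are a description, here and for the genes below. The share of all genes with the same order was not counted. The log2 fold change from WT was 0.78 (SE 0.17, adjusted p = 0.0252) in CD4+ and 0.67 (SE 0.11, adjusted p = 0.00999) in CD8+ T cells, by edgeR's quasi-likelihood test. From STAT3ko it was 0.50 (SE 0.11, adjusted p = 0.0244) in CD8+ T cells, and 0.51 (SE 0.17) in CD4+ T cells, where the adjusted p from edgeR was 0.0917. This CD4+ difference passed in edgeR with all 12 libraries in 1 fit (adjusted p = 0.0308) and with a block for the replicate number (adjusted p = 0.0217).

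The Fh1 calls were lost when single libraries were left out, while the fold change kept its direction. The CD4+ call against WT was lost when any of the 4 WT or STAT3ko PD-1ko libraries was left out (edgeR adjusted p = 0.0510 to 0.156, log2 fold change 0.62 to 0.94). In CD8+ T cells the call against WT was lost without WT replicate 2 (edgeR adjusted p = 0.0565) or STAT3ko PD-1ko replicate 2 (0.0686), and that against STAT3ko without any of the 4 STAT3ko or STAT3ko PD-1ko libraries (0.0587 to 0.147). Over all libraries left out in turn, the CD8+ log2 fold change of Fh1 stayed at 0.64 to 0.68 against WT and 0.46 to 0.51 against STAT3ko. When 1 of the 4 libraries compared was left out, 62 to 676 genes passed between STAT3ko PD-1ko and WT in CD4+ T cells (0.508% to 5.51%). The fits that lost Fh1 against WT in CD8+ T cells called 111 and 674 genes (0.903% and 5.49%), and those against STAT3ko called 2 to 1194 (0.0163% to 9.68%).

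**Figure D3:**
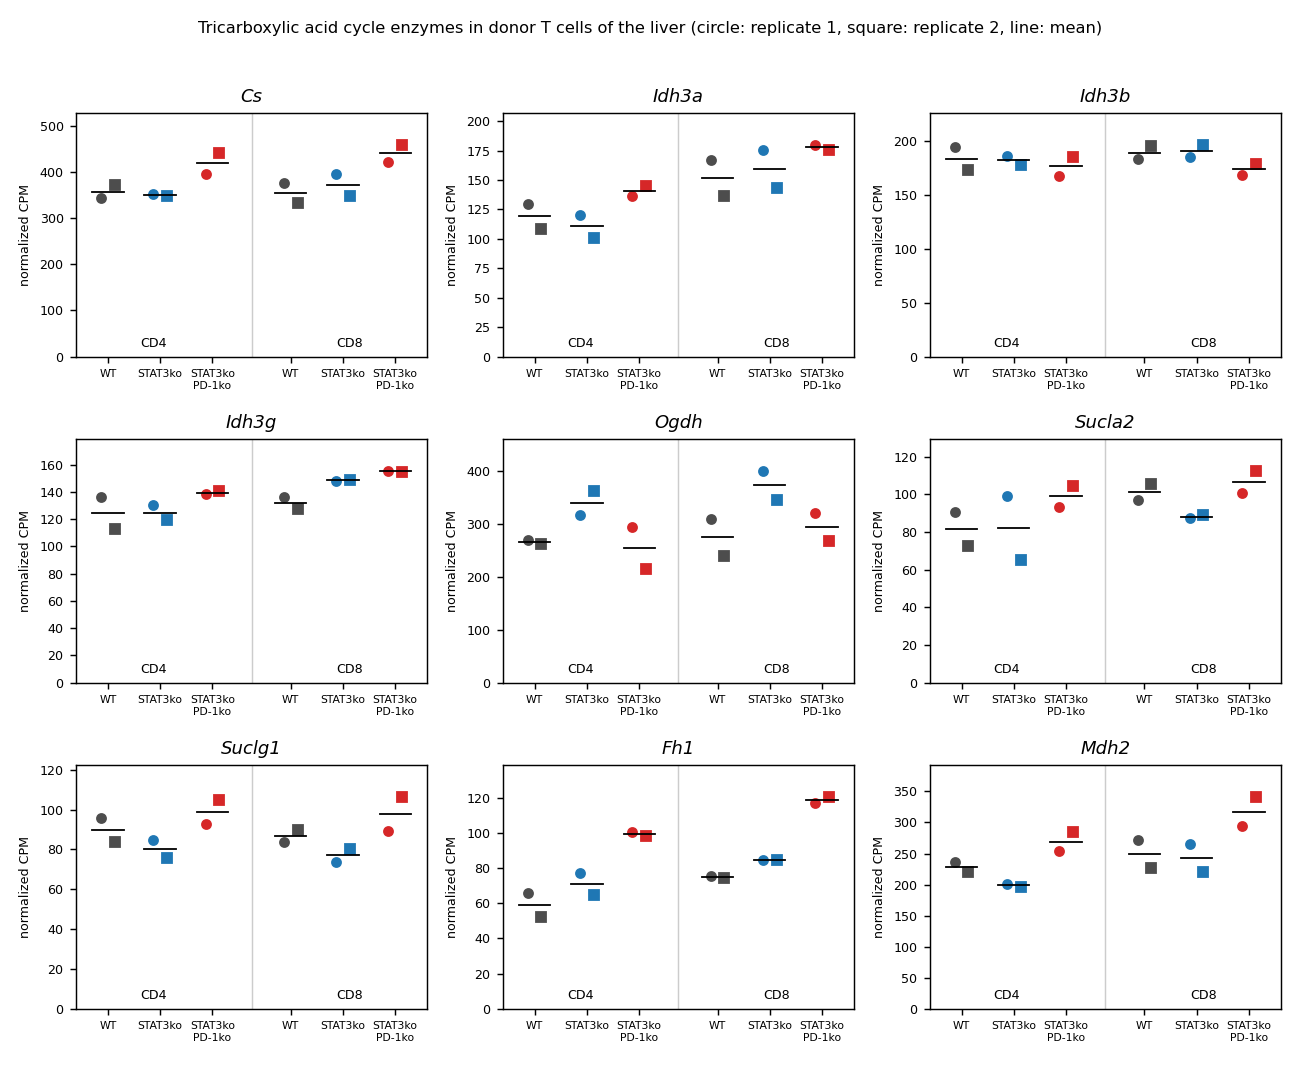
Normalized CPM of the 9 enzymes in each of the 12 libraries, with 1 panel for each gene, an axis from 0, and a line at the mean of the 2 libraries of a group. The STAT3ko PD-1ko libraries of Fh1 sit at 101 and 98.4 CPM in CD4+ and 117 and 121 CPM in CD8+ T cells, above all others of their subset, while those of Idh3b overlap with the others in CD4+ and lie below them in CD8+ T cells.

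Mdh2 (chr5:135778649-135790386, plus strand) encodes the mitochondrial malate dehydrogenase, which takes malate on to oxaloacetate. It was at 237 and 220.2 CPM in WT, 202 and 196 in STAT3ko and 254 and 285 in STAT3ko PD-1ko CD4+ libraries. In the CD8+ libraries it was at 271 and 227, 265 and 219.8 and 294 and 341 CPM. The STAT3ko PD-1ko libraries were the highest in each subset, and in CD4+ T cells the STAT3ko libraries were the lowest. The log2 fold change of STAT3ko PD-1ko against STAT3ko was 0.46 ± 0.14 (SE) in CD4+ and 0.40 ± 0.15 in CD8+ T cells, with adjusted p of 0.0781 and 0.101 from edgeR. The CD4+ difference passed with DESeq2 in place of edgeR (adjusted p = 0.0271) and in edgeR with a block for the replicate number (adjusted p = 0.0259).

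Cs (chr10:128337727-128362482, plus strand) encodes citrate synthase, the enzyme that joins acetyl-CoA to oxaloacetate. It was at 343 and 371 CPM in WT, 352 and 348 in STAT3ko and 395 and 441 in STAT3ko PD-1ko CD4+ libraries, and at 375 and 332, 395 and 347 and 422 and 458 CPM in the CD8+ libraries. Here too the STAT3ko PD-1ko libraries were the highest of each subset. The log2 fold change from WT was 0.25 ± 0.14 (SE) in CD4+ and 0.33 ± 0.12 in CD8+ T cells, which did not pass (edgeR adjusted p = 0.284 and 0.0991). When 1 library was left out, it ranged from 0.156 to 0.335 in CD4+ and from 0.229 to 0.407 in CD8+ T cells.

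Idh3a (chr9:54586511-54604662, plus strand), Idh3b (chr2:130279309-130284451, minus strand) and Idh3g (chrX:73778963-73786897, minus strand) encode the subunits of the NAD-dependent isocitrate dehydrogenase, of which the α subunit is catalytic. Idh3a ranged from 101 to 180 CPM over the 12 libraries and Idh3g from 113 to 156 CPM. The 2 genes leaned upward in STAT3ko PD-1ko T cells, with log2 fold changes from WT of 0.26 and 0.19 in CD4+ and 0.24 and 0.24 in CD8+ T cells, none of which passed. With 1 library left out they ranged from 0.134 to 0.383 and 0.0536 to 0.316 in CD4+, and from 0.0868 to 0.384 and 0.183 to 0.284 in CD8+ T cells. Idh3b was the steadiest of the 9 enzymes, with 167 to 196 CPM in the 12 libraries, a span of 1.17-fold against 1.38-fold for Idh3g and 2.30-fold for Fh1. In CD8+ T cells the STAT3ko PD-1ko libraries (168 and 179 CPM) were below the 4 others, from 183 to 196 CPM, and in CD4+ T cells the genotypes overlapped. Its log2 fold changes lay between -0.13 and 0.01 in the 6 comparisons, and none passed. Idh3b and Nop56, which lies on the opposite strand, share 5 bases at their ends, and whether the counting used strand is not given in the sources used here.

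The balance of the subunits was also taken within each library. The ratio of Idh3a to Idh3b, both per exon length, was 0.423 and 0.398 in WT, 0.408 and 0.360 in STAT3ko and 0.516 and 0.495 in STAT3ko PD-1ko CD4+ libraries. In CD8+ libraries it was 0.579 and 0.442, 0.5996 and 0.463 and 0.677 and 0.623. The STAT3ko PD-1ko libraries had the highest ratio of each subset, with 2 libraries against 2 and no test of the ratio.

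Idh2, the NADP-dependent isocitrate dehydrogenase of the matrix, was lower in CD8+ than in CD4+ T cells of WT and STAT3ko donors. It was at 19.2 and 13.8 CPM in WT CD4+ and 7.65 and 6.55 CPM in WT CD8+ T cells. The CD4+ libraries held 11.1 to 12.2 CPM in STAT3ko and 9.97 to 10.5 CPM in STAT3ko PD-1ko. In CD8+ libraries these ranges were 6.91 to 6.99 and 7.03 to 8.45 CPM. Its log2 fold change from WT in CD4+ T cells was -0.49 in STAT3ko and -0.66 in STAT3ko PD-1ko, and neither passed. The log2 fold change of CD8+ against CD4+ was -1.22 in WT (SE 0.20, adjusted p = 0.00387 from edgeR) and -0.74 in STAT3ko T cells (SE 0.20, adjusted p = 0.0438). In STAT3ko PD-1ko T cells it was -0.40 ± 0.20 (SE) and did not pass (edgeR adjusted p = 0.402). The call in WT held whichever library was left out, and that in STAT3ko T cells held in 4 of 12 such fits (edgeR adjusted p up to 0.207). The change of this difference with the genotype was 0.81 ± 0.28 (SE) for STAT3ko PD-1ko against WT and did not pass (edgeR adjusted p = 0.722).

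Ogdh (chr11:6291597-6359094, plus strand) encodes the E1 subunit of the 2-oxoglutarate dehydrogenase complex. Its mean CPM was highest in STAT3ko T cells in both subsets, which none of the other 8 enzymes shared. It was at 269 and 262 CPM in WT, 317 and 362 in STAT3ko and 294 and 214 in STAT3ko PD-1ko CD4+ libraries. In CD8+ libraries the values were 310.0 and 239.7, 400.3 and 346 and 321 and 269 CPM. The STAT3ko libraries were thus the highest of each subset, and the WT and STAT3ko PD-1ko libraries overlapped. The log2 fold change of STAT3ko against WT was 0.36 ± 0.18 (SE) in CD4+ and 0.44 ± 0.16 in CD8+ T cells, and that of STAT3ko PD-1ko against STAT3ko was -0.40 ± 0.18 and -0.33 ± 0.16. With 1 library left out these values ranged from 0.251 to 0.463 and 0.268 to 0.631, and from -0.643 to -0.204 and -0.475 to -0.218. None of the 4 passed in edgeR with all libraries and no block (adjusted p = 0.563, 0.382, 0.182 and 0.185, in this order). With a block for the replicate number, STAT3ko PD-1ko against STAT3ko passed in CD8+ T cells (log2 fold change -0.33, edgeR adjusted p = 0.0470).

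The partners of Ogdh in the complex did not share this order. Dlst, the E2 subunit, was at 175 and 186 CPM in WT, 172 and 168 in STAT3ko and 167 and 176 in STAT3ko PD-1ko CD4+ libraries, and its log2 fold changes lay between -0.08 and 0.03 in the 6 comparisons. Dld, the E3 subunit that pyruvate dehydrogenase also uses, had log2 fold changes from WT of 0.31 ± 0.24 (SE) and 0.36 ± 0.12 in STAT3ko PD-1ko CD4+ and CD8+ T cells, neither of which passed. Per exon length, the ratio of Ogdh to Dlst was 0.599 and 0.547 in WT, 0.719 and 0.840 in STAT3ko and 0.686 and 0.472 in STAT3ko PD-1ko CD4+ libraries. The CD8+ libraries gave 0.624 and 0.498, 0.812 and 0.706 and 0.666 and 0.542. Every STAT3ko library was above every other library of its subset in this ratio.

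Within a library, the ratio of Mdh2 to Ogdh set the STAT3ko libraries apart as well. Per exon length it was 4.88 and 4.66 in WT, 3.52 and 3.0 in STAT3ko and 4.78 and 7.39 in STAT3ko PD-1ko CD4+ libraries. In the CD8+ libraries it was 4.85 and 5.24, 3.66 and 3.52 and 5.07 and 7.04. The STAT3ko libraries were the lowest in both subsets, while WT and STAT3ko PD-1ko overlapped in both. For Fh1 to Ogdh, the STAT3ko PD-1ko libraries were the highest, at 1.49 and 2.00 in CD4+ and 1.59 and 1.96 in CD8+ T cells against 0.776 to 1.35 in the other 8 libraries. These ratios were chosen with the values known and are a description.

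**Figure D4:**
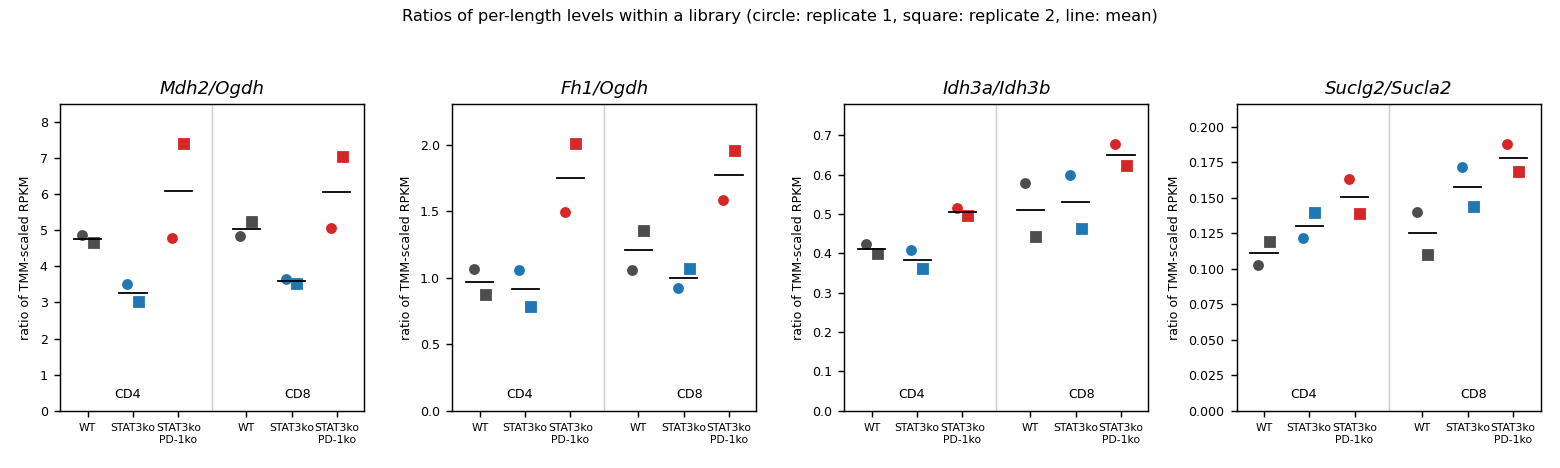
Ratios of per-length levels (TMM-scaled RPKM) of 4 gene pairs within each of the 12 libraries, with an axis from 0 and a line at the mean of the 2 libraries of a group. The STAT3ko libraries have the lowest Mdh2 to Ogdh ratio of each subset, 3.52 and 3.0 in CD4+ and 3.66 and 3.52 in CD8+ T cells, and the STAT3ko PD-1ko libraries the highest Fh1 to Ogdh ratio.

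Sucla2 (chr14:73552786-73596144, plus strand) and Suclg1 (chr6:73248505-73276907, plus strand) encode the ADP-forming β subunit and the shared α subunit of succinyl-CoA ligase, which makes the ATP or GTP of the cycle. Sucla2 was at 90.7 and 72.7 CPM in WT, 99.2 and 65.3 in STAT3ko and 93.4 and 104 in STAT3ko PD-1ko CD4+ libraries, so that the 2 STAT3ko replicates held both the lowest and the second highest of the 6 values. Suclg1 was at 95.7 and 83.8, 85.0 and 75.6 and 92.6 and 105 CPM in the same libraries. In CD8+ T cells Sucla2 was at 96.9 and 106, 87.4 and 88.8 and 101 and 112 CPM and Suclg1 at 83.6 and 89.9, 73.6 and 80.3 and 89.1 and 106 CPM. The STAT3ko CD8+ libraries were the lowest for both genes. From STAT3ko to STAT3ko PD-1ko the log2 fold change in CD8+ T cells was 0.29 ± 0.12 (SE) for Sucla2 and 0.36 ± 0.14 for Suclg1, and neither passed (edgeR adjusted p = 0.142 and 0.113). When 1 library was left out, these values ranged from 0.194 to 0.351 and from 0.211 to 0.466.

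Suclg2, the GTP-forming β subunit and the rarer of the 2 β subunits here, rose. It was at 16.8 and 15.6 CPM in WT, 21.8 and 16.4 in STAT3ko and 27.5 and 26.1 in STAT3ko PD-1ko CD4+ libraries, and at 24.5 and 20.9, 27.1 and 22.98 and 34.1 and 34.1 CPM in the CD8+ libraries. The STAT3ko PD-1ko libraries were the highest of each subset. The log2 fold change from WT was 0.75 in CD4+ (SE 0.19, adjusted p = 0.0435 from edgeR) and 0.60 in CD8+ T cells (SE 0.15, adjusted p = 0.0330). Per exon length, Suclg2 stood at 0.103 to 0.187 of Sucla2 in the 12 libraries.

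Of the subunits of succinate dehydrogenase, which is also complex II of the respiratory chain, only Sdha passed, in a single comparison. Sdha, the flavoprotein, was at 245 and 206 CPM in WT, 282 and 262 in STAT3ko and 328 and 377 in STAT3ko PD-1ko CD8+ libraries, a log2 fold change of 0.65 from WT (SE 0.13, adjusted p = 0.0185 from edgeR). The 3 genotypes did not overlap. In CD4+ T cells the log2 fold change was 0.52 ± 0.15 (SE) with an edgeR adjusted p of 0.0602. Sdhb, Sdhc and Sdhd, the iron-sulfur and membrane subunits, had log2 fold changes from WT of 0.22, 0.30 and 0.46 in CD4+ and 0.01, 0.26 and 0.33 in CD8+ STAT3ko PD-1ko T cells, none of which passed.

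Over the 17 genes of the cycle examined, the calls between STAT3ko PD-1ko and WT were thus Fh1 and Suclg2 in CD4+ and Fh1, Suclg2 and Sdha in CD8+ T cells, all upward. These are 2 and 3 of 17 genes, near the 12.9% and 17.2% of all genes that passed. For the 8 genes beside the 9 enzymes the median log2 fold change was 0.30 and 0.29 against WT, 0.28 and 0.35 against STAT3ko, and -0.02 and -0.03 of STAT3ko against WT, in CD4+ and CD8+ T cells. Suclg2 was lost without any of the 4 WT or STAT3ko PD-1ko libraries, and Sdha without either STAT3ko PD-1ko library or WT replicate 2, with an adjusted p from edgeR of up to 0.196 for Suclg2 in CD4+, 0.194 for Suclg2 in CD8+ and 0.115 for Sdha in CD8+ T cells. The log2 fold changes stayed at 0.69 to 0.79 for Suclg2 in CD4+, 0.48 to 0.70 for Suclg2 in CD8+ and 0.52 to 0.78 for Sdha in CD8+ T cells.

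The difference between the subsets was tested in a fit of the 12 libraries. None of the 9 enzymes passed for any of the 3 genotype comparisons, where 0%, 0.00811% and 0% of 12334 genes passed for STAT3ko against WT, STAT3ko PD-1ko against WT, and STAT3ko PD-1ko against STAT3ko. At an unadjusted p under 0.05 these were 228, 547 and 443 genes by edgeR, and 0 of the 9 enzymes. For Fh1 the change from WT in STAT3ko PD-1ko T cells was -0.09 ± 0.19 (SE) on the log2 scale in CD8+ relative to CD4+ T cells.

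Between CD8+ and CD4+ T cells of the same genotype, none of the 9 enzymes passed in the fit that treats the libraries as independent, against 10.5% of all genes in WT, 9.62% in STAT3ko and 4.14% in STAT3ko PD-1ko T cells. Their median log2 fold change was 0.08, 0.14 and 0.15. The lowest adjusted p of the 9 was that of Fh1 in WT (log2 fold change 0.34 ± 0.14 (SE), edgeR adjusted p = 0.163) and that of Idh3a in STAT3ko (0.53 ± 0.16, 0.0648) and STAT3ko PD-1ko T cells (0.34 ± 0.16, 0.359). Idh3a passed in STAT3ko T cells with DESeq2 in place of edgeR. The legends of the study place the CD8+ T cells in the same livers as the CD4+ T cells, and whether libraries with the same number share a pool is not given in the sources used here. With CD4+ and CD8+ libraries of the same genotype and number as a pair (the replicate block by pool), Fh1 and Idh3a passed in WT, Idh3a and Mdh2 in STAT3ko and Idh3a in STAT3ko PD-1ko T cells, all higher in CD8+ T cells, where 24.3%, 24.9% and 14.4% of all genes passed.

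The genes that feed the cycle were counted from lists. Of the 12 tested genes for the entry of pyruvate (carriers, pyruvate dehydrogenase, its kinases and phosphatases), none passed in any of the 6 comparisons between genotypes. Of all genes, 11.1% (CD4+) and 16.8% (CD8+) passed between STAT3ko PD-1ko and STAT3ko, and 0.334% and 0.0583% between STAT3ko and WT. Between STAT3ko PD-1ko and WT, 12.9% and 17.2% passed. Whether this list differs from all genes was not tested. Its median log2 fold change was 0.05 in CD4+ and 0.10 in CD8+ STAT3ko PD-1ko T cells as compared with WT. Among the 13 genes examined for the entry of glutamine and the malate-aspartate shuttle, Gls2 had 1 to 7 counts in every WT and STAT3ko library and passed the filter on low counts only through STAT3ko PD-1ko, so it is left out of the counts. Of the other 12, 1 rose in CD4+ and 3 rose in CD8+ T cells in this comparison, where 12.9% and 17.2% of all genes passed in either direction. Slc25a13, a mitochondrial carrier that exports aspartate in exchange for glutamate, went from 17.0 and 14.4 CPM in WT to 39.3 and 39.4 in STAT3ko PD-1ko CD4+ libraries and from 20.3 and 17.5 to 39.6 and 39.5 CPM in CD8+ libraries. Its log2 fold change was 1.35 (SE 0.17, adjusted p = 0.00530) and 1.08 (SE 0.16, adjusted p = 0.00844) by edgeR.

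Got2, the mitochondrial aspartate aminotransferase, which makes aspartate from oxaloacetate, rose in CD8+ T cells from 86.3 and 83.0 to 115 and 155 CPM (log2 fold change 0.68, SE 0.17, adjusted p = 0.0322 from edgeR). Its CD8+ log2 fold change ranged from 0.441 to 0.869 when 1 library was left out. Gpt2, the mitochondrial alanine aminotransferase, also rose there, at low levels of 7 and 3 counts in WT and 30 and 41 counts in STAT3ko PD-1ko libraries. Gls2, a glutaminase, had 6 and 1 counts in WT, 4 and 7 in STAT3ko and 27 and 56 in STAT3ko PD-1ko CD8+ libraries. Against STAT3ko, Slc25a13 rose in both subsets and Got2 in CD8+ T cells, while Slc25a11, which carries 2-oxoglutarate for malate, fell by 0.43 on the log2 scale in CD8+ T cells (SE 0.11, edgeR adjusted p = 0.0409), a call that was lost whichever library was left out.

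For the use of citrate outside the mitochondrion, 7 genes were tested. In CD4+ T cells 0 of 7 passed against WT, where 12.9% of all genes did, and in CD8+ T cells 3 of 7 passed, where 17.2% did. In CD8+ STAT3ko PD-1ko T cells Acaca and Fasn, the enzymes that commit acetyl-CoA to fatty acid synthesis, rose by 0.71 and 0.61 on the log2 scale as compared with WT, and Aco1, the cytosolic aconitase, fell by 0.64 (edgeR adjusted p = 0.0127, 0.0135 and 0.0216). Of the 6 genes for lipoylation and matrix redox, 1 passed against WT in each subset, beside the same shares of all genes. This was Nnt, the transhydrogenase that makes NADPH from NADH, which rose by 1.17 in CD4+ and 1.17 in CD8+ T cells from WT (edgeR adjusted p = 0.00819 and 0.0166). Its levels were 12.5 and 12.4 CPM in WT, 17.5 and 19.2 in STAT3ko and 28.0 and 27.1 in STAT3ko PD-1ko CD4+ libraries. C57BL/6 substrains are known to differ in Nnt, and the substrain of the donors is not given in the sources used here. Lias, which makes the lipoate that Dlst carries, rose from STAT3ko in CD8+ T cells by 0.64 (edgeR adjusted p = 0.0365). This value ranged from 0.421 to 0.814 when 1 library was left out.

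Some genes for mitochondrial import, the outer membrane channel and the matrix chaperones rose in STAT3ko PD-1ko T cells. As compared with WT, 4 of 14 rose in CD4+ and 6 of 14 in CD8+ STAT3ko PD-1ko T cells, and as compared with STAT3ko 5 of 14 and 8 of 14 rose. Of all genes, 12.9%, 17.2%, 11.1% and 16.8% passed in these 4 comparisons, in either direction. None of the 14 fell, and none passed between STAT3ko and WT. Hspa9, the matrix HSP70 that pulls precursors in, was at 189.6 and 179 CPM in WT, 153 and 122 in STAT3ko and 265 and 321 in STAT3ko PD-1ko CD4+ libraries. As compared with STAT3ko, its log2 fold change was 1.11 for CD4+ and 1.17 for CD8+ T cells (edgeR adjusted p = 0.0129 and 0.00925). Hspd1, the chaperonin of the matrix, Tomm40, the pore of the import channel, and Vdac1, the porin, also rose in all 4 comparisons that involve STAT3ko PD-1ko T cells, and Phb, a prohibitin of the inner membrane, passed against STAT3ko in both subsets. The Phb calls and that of Vdac1 against STAT3ko in CD4+ T cells were lost whichever of the 6 libraries of the subset was left out. Whether this list differs from the cycle enzymes was not tested.

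Of the 9 tested regulators of mitochondrial genes, 0 passed in CD4+ and 1 in CD8+ T cells against WT, where 12.9% and 17.2% of all genes did. This was Esrra, an orphan nuclear receptor that acts on genes of oxidative metabolism, which fell by 0.68 in CD8+ T cells (SE 0.19, edgeR adjusted p = 0.0459). Pprc1, a coactivator of the PGC-1 family, rose against STAT3ko in both subsets, by 0.87 and 0.78 (edgeR adjusted p = 0.0361 and 0.0103). Myc, the transcription factor that drives the growth of activated T cells, was at 77.5 and 65.9 CPM in WT, 80.9 and 43.6 in STAT3ko and 97.8 and 56.7 in STAT3ko PD-1ko CD4+ libraries. In CD8+ libraries it was at 69.0 and 49.8, 79.7 and 43.6 and 98.3 and 56.0 CPM. Replicate 1 was above replicate 2 in all 6 groups, and within each number STAT3ko PD-1ko was above STAT3ko. Myc passed in none of the comparisons.

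Genes of cell division were examined beside these. Of 10 proliferation genes, 8 rose in CD4+ and 4 in CD8+ STAT3ko PD-1ko T cells as compared with WT, and 3 and 0 rose as compared with STAT3ko, against the same 12.9%, 17.2%, 11.1% and 16.8% of all genes. Between STAT3ko and WT none of the 10 passed, although all 10 had a positive log2 fold change in both subsets, with medians of 0.29 (CD4+) and 0.31 (CD8+) and 1 and 5 of them at an unadjusted p under 0.05 in edgeR. Between STAT3ko PD-1ko and STAT3ko, 10 were positive in CD4+ and 7 in CD8+ T cells. From WT, Mcm5 of the replication helicase rose by 1.13 in CD4+ and 0.77 in CD8+ T cells on the log2 scale, and Tyms, thymidylate synthase, by 1.05 and 0.64. Ccnb1, a mitotic cyclin, rose in both subsets (0.98 and 0.54), with a CD8+ call that was lost whichever library was left out, and Cdk1, its kinase, rose in CD4+ T cells (0.91). Mki67, a marker of cycling cells, was at 1676 and 1449 CPM in WT, 1913 and 1919 in STAT3ko and 2712 and 2712 in STAT3ko PD-1ko CD4+ libraries, and at 2204 and 1902, 3048 and 2789 and 3049 and 2958 CPM in the CD8+ libraries. The part of cell division in the values of the cycle enzymes was not tested.

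Over the 12 libraries the 9 enzymes did not form a single block. This is a description over libraries that share groups, with no test. The correlation of log2 CPM was 0.88 between Idh3a and Idh3g and 0.87 between Cs and Mdh2, and -0.81 between Ogdh and Suclg1. With the mean standardized level of the other 8 enzymes, Idh3g correlated at 0.90, Idh3a at 0.87, Fh1 at 0.85, Mdh2 at 0.83, Sucla2 at 0.74 and Cs at 0.62. Suclg1 was at 0.39, Idh3b at -0.18 and Ogdh at -0.27. Among the 8 further genes of the cycle, Sdhc followed the mean of the 9 enzymes most closely (0.93) and Idh2 ran against it (-0.51). Of 8690 genes outside the set, the 6 most like this mean were Ncbp1 (0.971), Mrpl40 (0.971), Psmc3 (0.969), Polr2b (0.966), Tmem97 (0.966) and Ppp1r8 (0.964).

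The starts of Fh1, the enzyme that passed the test, and of Ogdh, whose STAT3ko libraries were the highest, are shown as the 250 bases upstream of the start in RefSeq (GRCm38.p6, the build called mm10), 5′ to 3′ on the strand of the gene. RefSeq promoters were matched for 8 of the 9 enzymes. Capitals mark CACGTG, the E-box.
Fh1, chr1:175625636-175625885, minus strand: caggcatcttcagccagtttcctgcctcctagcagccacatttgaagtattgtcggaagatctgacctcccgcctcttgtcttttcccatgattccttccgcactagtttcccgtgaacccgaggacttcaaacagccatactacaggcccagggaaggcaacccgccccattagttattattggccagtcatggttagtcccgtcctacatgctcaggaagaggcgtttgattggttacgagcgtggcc
Ogdh, chr11:6291920-6292169, plus strand: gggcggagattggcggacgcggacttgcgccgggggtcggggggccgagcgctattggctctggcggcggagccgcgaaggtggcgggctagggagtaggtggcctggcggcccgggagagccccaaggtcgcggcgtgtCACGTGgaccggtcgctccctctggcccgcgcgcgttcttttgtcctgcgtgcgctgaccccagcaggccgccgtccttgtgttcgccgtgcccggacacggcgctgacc
Ogdh has 6 starts in this table, and the one shown, which is one of those that hold CACGTG, lies inside the gene as the deposited table gives it. Of the 6 starts, 3 hold CACGTG, 2 of them at the same site, and the other 3, among them the one at the beginning of the gene in the deposited table, hold none of the letters searched. The 13 promoters of the 8 enzymes, 6 of them of Ogdh, each of 250 bases before and 50 after a start, were searched on both strands for CACGTG (the E-box), GCATGCGC (a core of NRF1 sites), CCGGAAG (a core of ETS sites), AAGGTCA (a half-site of estrogen-related receptors) and TTCNNNGAA (a STAT palindrome). CACGTG, GCATGCGC and AAGGTCA were found for Ogdh alone, CCGGAAG for Idh3b and Idh3g, and TTCNNNGAA for none. Of all 32851 promoters of this length, 7.15%, 2.71%, 4.72%, 8.86% and 8.30% hold these letters, in the order E-box, NRF1, estrogen-related receptor, ETS and STAT. A match is a description of the sequence and not a site.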

How the data were processed

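The RNA of sorted donor T cells was sequenced in 12 libraries. According to the methods, the authors aligned 51 bp single-end reads to mm10 with STAR (version 2.7) and assigned them to genes of RefSeq by HTSeq-count (version 0.11); its strand setting is not given in the sources used here. The authors deposited raw counts per gene and RPKM values (counts scaled by exon length and library size). The labels also carry a culture protocol and a library kit that do not match sorted T cells, and these fields were not used.

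Here edgeR (version 4.0.16, on R version 4.3.3) tested the counts: filterByExpr (minimum count 10, minimum total 15), TMM, and the quasi-likelihood test on the 6 libraries of a subset (3 residual degrees of freedom), or on all 12 for differences between subsets (6). A gene passed at a Benjamini-Hochberg adjusted p under 0.05 over all genes tested. SE is the standard error of the log2 fold change. Exact permutation of 2 against 2 libraries cannot reach 0.05. Alternatives used DESeq2 (version 1.42.0) and limma (version 3.58.1), with log2(RPKM + 1) for the latter. Correlations used log2(CPM + 0.5). The common BCV of the fits was 0.189 (CD4+) and 0.169 (CD8+), so that the spread between pools limits the precision more than the depth. The fits were tested on simulated data. Plots used matplotlib (version 3.10.9) under Python (version 3.11.15).

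The 9 enzymes and the gene lists were chosen with earlier results of these data known. Some genes of these lists are not reported here and were left out of the counts. The text names 17 genes of the cycle, up to 4 genes of each other list that passed in any of the 6 comparisons between genotypes, by the size of the log2 fold change, with Myc, Stat3 and Pdcd1, and the 6 genes most like the mean of the 9 enzymes whose mean log2 CPM was 3 or more. Slc25a11, Vdac1, Timm44, Mki67 and single markers of other cell types were named after their values were seen.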

Additional observations from a re-analysis of the deposited data

How the results depend on the processing

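The alternatives were DESeq2, RLE size factors, no filter or a floor of 10 counts per library, a fit of the 4 libraries alone, all 12 libraries in 1 fit, limma on log2(RPKM + 1), a block for the replicate number, and leaving out each library in turn. Fh1 kept its direction in every alternative. Its calls between STAT3ko PD-1ko and WT held in all 8 alternatives that kept every library in both subsets, as did that against STAT3ko in CD8+ T cells.

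The count of the 9 enzymes that passed moved as follows; the cause was not tested. Between STAT3ko PD-1ko and STAT3ko in CD4+ T cells it was 1 with all 12 libraries in 1 fit (Fh1), 1 with DESeq2 (Mdh2), and 2 with the replicate block (Fh1 and Mdh2). In CD8+ T cells the replicate block gave 2 (Fh1 and Ogdh). For CD8+ against CD4+ in STAT3ko T cells it was 1 with DESeq2 and 1 with the replicate block (Idh3a). With the replicate block by pool (genotype and number together) it was 2 in WT (Fh1 and Idh3a), 2 in STAT3ko (Idh3a and Mdh2) and 1 in STAT3ko PD-1ko T cells (Idh3a). When a library was left out, the count was 0 to 1 in 3 comparisons, STAT3ko PD-1ko against WT in CD4+ and in CD8+ T cells and STAT3ko PD-1ko against STAT3ko in CD8+ T cells, and 0 in the other 9.

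The replicate numbers are shared between the groups. The running numbers in the sample titles form 1 series for replicate 1 and another for replicate 2, and the methods speak of batches for the T cell receptor sequencing, but not for these libraries, so that the numbers may mark batches. There are only 2 of them. The deviations of replicate 1 from its group mean correlated over genes at 0.73 between WT and STAT3ko in CD4+ T cells. The value was 0.36 between WT and STAT3ko PD-1ko and 0.21 between STAT3ko and STAT3ko PD-1ko. In CD8+ T cells these values were 0.74, 0.19 and 0.045, in the same order. The shares of all genes given for STAT3ko against WT, the pair with the highest correlation, come from fits without this block. The replicate block raised the genes that passed between STAT3ko PD-1ko and STAT3ko to 3105 from 1324 in CD4+ and to 2932 from 2017 in CD8+ T cells.

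Signs turned only for enzymes that had not passed. For STAT3ko against WT in CD4+ T cells, the log2 fold change of Idh3g was -0.00386 with DESeq2, -0.00389 with RLE, -0.0151 with the 4 libraries alone and -0.00449 with limma, and that of Sucla2 was -0.00604 with the 4 libraries alone and -0.0225 with limma. With a library left out, the log2 fold change of STAT3ko against WT in CD4+ T cells ranged from -0.0878 to 0.031 for Cs, -0.231 to 0.0196 for Idh3a, -0.0916 to 0.0703 for Idh3b, -0.126 to 0.139 for Idh3g and -0.308 to 0.275 for Sucla2. In CD8+ T cells it ranged from -0.0200 to 0.154 for Cs, -0.0742 to 0.219 for Idh3a, -0.0402 to 0.0613 for Idh3b and -0.174 to 0.0868 for Mdh2. STAT3ko PD-1ko against WT ranged from -0.124 to 0.0463 for Idh3b and -0.281 to 0.157 for Ogdh in CD4+, and from -0.0745 to 0.297 for Ogdh and -0.00565 to 0.151 for Sucla2 in CD8+ T cells. STAT3ko PD-1ko against STAT3ko ranged from -0.115 to 0.0532 for Idh3b in CD4+ T cells. Of 67 calls between genotypes examined for genes of the other lists, Stat3 and Pdcd1 (Gls2 left out), all kept their sign in every alternative and 52 held in every alternative that kept all libraries. Whichever library was left out, 3 held, which were those of the deleted genes (Pdcd1 against WT in both subsets and Stat3 against WT in CD8+ T cells), and no call of a gene of the lists did. In 6 no such fit kept the call (Phb in both subsets and Vdac1 in CD4+, Slc25a11 and Timm44 in CD8+ T cells, all against STAT3ko, and Ccnb1 against WT in CD8+ T cells).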
